A study of Homo sapiens with 11 samples.

Results

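NEAT1 and MALAT1 are long nuclear RNAs transcribed side by side from the plus strand of chromosome 11, and their contact with the RNA-binding protein ZFP36L2 was followed here in the human acute myeloid leukaemia lines MOLM13 and THP1. The members studied were the peaks over input that the authors' tables name NEAT1 or MALAT1, 220 of 67083 peaks, together with every listed cluster over IgG on the same strand within the span of those peaks. NEAT1 held 206 of the peaks and MALAT1 held 14, so that they are 2 of 6881 genes with a peak. The folds over input chose these members, so all values over input are a description. The folds over IgG did not choose them, but they share the immunoprecipitates' reads with the folds over input. The MALAT1 site was chosen from THP1 peaks alone, so the MOLM13 values over IgG at that site come from immunoprecipitates that did not choose it.

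ZFP36L2 is a zinc finger protein of the TIS11 family, which binds AU-rich stretches in mRNAs and hastens their decay. NEAT1 is the RNA scaffold of paraspeckles, nuclear bodies that hold proteins such as NONO and SFPQ. It exists as a short form, which ends within the first few kilobases and is polyadenylated, and as a long form that shares its start and runs through the whole gene. Only the long form builds paraspeckles. MALAT1 is an abundant RNA that is enriched at nuclear speckles, the bodies that store splicing factors. It ends in a triple helix rather than a poly(A) tail, and a small tRNA-like RNA, mascRNA, is cut from its 3′ end.

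Binding was mapped by eCLIP, in which ultraviolet light joins proteins to RNA, the protein is immunoprecipitated and the attached fragments are sequenced. The 11 libraries were 2 ZFP36L2 immunoprecipitates, 2 control IgG libraries and 2 inputs of MOLM13, and 2 ZFP36L2 immunoprecipitates, 2 control IgG libraries and 1 input of THP1. Both lines came unmodified and untreated as far as the labels say, and all cells were crosslinked with 400 mJ/cm2 at 254 nm. The labels do not state that the duplicates are separate cultures, and their spread may therefore be technical.

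The input, 2% of the lysate, shows what RNA was there, and the IgG library shows what is recovered with a control antibody. A peak is a cluster listed over input, for which the log2 fold and the −log10 p were each 3 or more. The same limits define a cluster called over IgG. The input tables held 14432 and 14425 peaks in MOLM13 replicates 1 and 2, and 19325 and 18901 in the THP1 replicates. The IgG lists held 140287 and 182486 clusters in MOLM13 and 153162 and 143910 in THP1, with list medians of 0.28, −0.60, 0.0019 and 0.38 log2 in that order, so the zero of the scale differs between lists. Read depth is unknown, since the files give no counts. Of 10 monocytic marker genes each library had a cluster in 7, and 6 were common to all 4 libraries. MPO was listed in MOLM13 alone and ITGAM in THP1 alone, while CD14 and FCGR1A were without a cluster. For the erythroid and megakaryocytic markers the highest count was 1 of 5 (ITGA2B in THP1 replicate 1), and for the epithelial ones 1 of 4 (KRT8 in both MOLM13 replicates).

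On hg38, NEAT1 (ENSG00000245532.8) covers chr11:65422798-65445540 and MALAT1 (ENSG00000251562.8) covers chr11:65497738-65506516 in the RefSeq table of GRCh38.p14, which gives lengths of 22743 and 8779 bases. All 220 peaks were annotated as noncoding exon. Peaks of NEAT1 spanned 22695 bases, from the annotated start almost to the end. Those of MALAT1 lay together in 91 bases at chr11:65500803-65500893, bases 3066 to 3156 of the annotated gene. No cluster lay on the opposite strand of either gene in any of the 4 libraries, including the strand of TALAM1, the antisense RNA of MALAT1.

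A part of a cluster with known letters lies at another annotated start of MALAT1, base 65499045, and is shown because each of the 4 immunoprecipitates had a cluster there that was not enriched. The stretch below is chr11:65499065-65499094 on the plus strand, bases 21 to 50 from that start, written 5′ to 3′ from RefSeq on GRCh38.p14, and the capitals mark the 27 bases that the cluster covered in all 4 libraries.
MALAT1 start: cagGGGCTTCTGCTGAGGGGGCAGGCGGAG
This cluster had log2 folds over IgG of −0.94 and −1.19 in MOLM13 and −1.21 and −0.99 in THP1, below IgG in each library, and no peak over input. The core AU-rich motif ATTTA was searched on both strands of the 50 bases from that start and was not found, and neither were the longer TATTTA or TATTTAT or the nonamer TTATTTATT, all of which contain it. On the transcript strand, ATTTA occurs in 2.28% of 35116 RefSeq start windows of that length and TTATTTATT in 0.0142%. The letters of the enriched NEAT1 and MALAT1 sites were not used here, so motifs were not counted in them.

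NEAT1 peaks over input were many in 1 replicate of each line and few in the other. MOLM13 replicate 1 had 7 NEAT1 peaks and replicate 2 had 77, while THP1 replicate 1 had 19 and replicate 2 had 103. Touching peaks merged into 7 and 35 regions in MOLM13 and 12 and 47 in THP1, which covered 384, 2583, 613 and 3528 bases. By number of peaks NEAT1 ranked at 1 among all genes in the second replicate of both lines, and at 352 of 4994 genes and 61 of 5674 in the other MOLM13 and THP1 replicates. It supplied 37.0% and 37.9% of all noncoding exon peaks in the libraries where it ranked at 1, against 5.11% and 10.2% in the other MOLM13 and THP1 libraries. Of the NEAT1 clusters, 6.14%, 46.4%, 14.2% and 61.3% carried a peak over input, where the share over all clusters was 10.3%, 7.89%, 12.6% and 13.1%. These shares are part of the choice and nothing is read from them.

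Enrichment of NEAT1 over input was shallow and lay close to the limit of the tables. Its median log2 fold was 3.37 and 3.33 in MOLM13 and 3.24 and 3.49 in THP1, against 4.38, 4.33, 4.51 and 4.47 for all peaks of the same tables. Its highest peaks reached 3.68, 4.29, 5.20 and 4.61. Below a log2 fold of 4 lay 7 of 7, 72 of 77, 17 of 19 and 86 of 103 peaks. The lowest peaks inside the limit had log2 folds of 3.016, 3.014, 3.006 and 3.002, and values just outside it are not in the tables used here. On the −log10 scale the weakest p was 16.7, 15.5, 15.2 and 26.6, far above the limit of 3, whereas the folds began at theirs. In THP1 replicate 2, 20 peaks stood at the ceiling of 400, which no NEAT1 peak of the other 3 libraries reached. Their highest values were 62.4 and 80.4 in MOLM13 and 55.0 in THP1 replicate 1.

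In MOLM13, the NEAT1 peaks of the library with fewer lay at places where the library with more also had them. All 7 peaks of MOLM13 replicate 1 overlapped a peak of replicate 2, and 13 of 77 (16.9%) the other way, where the shares over all peaks were 78.4% and 83.9%. Between lines, 60 of 77 peaks (77.9%) of MOLM13 replicate 2 overlapped a peak of THP1 replicate 2, and 69 of 103 (67.0%) the other way, close to the 79.2% and 63.3% of all peaks. For the THP1 replicates, both comparisons may use the single input library of that line, so their overlap is not given as a result. At the 7 matched MOLM13 peaks replicate 2 was higher than replicate 1 by a median of 0.48 log2, where all 11310 matched MOLM13 peaks gave −0.12. Merged over all 4 tables the peaks formed 51 regions of 3 to 550 bases, of which 23 were in 1 table, 17 in 2, 9 in 3 and 2 in all 4. Any MOLM13 peak lay in 29 of these regions and any THP1 peak in 46.

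Just 2 NEAT1 regions had a peak in every library. The region chr11:65427143-65427692, bases 4346 to 4895 from the start, reached 3.09 and 3.67 log2 over input for MOLM13, with 3.84 and 4.61 for THP1. At those same peaks the log2 folds over IgG were 0.86, 0.61, 0.06 and 0.99, low in every library and close to 0 in THP1 replicate 1. The region chr11:65433088-65433167, bases 10291 to 10370, reached 3.65, 4.29, 3.95 and 4.38 over input. There the MOLM13 folds over IgG were 1.85 and 1.61 and the THP1 folds 1.43 and 2.52, above those of the other region in each library.

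Other regions repeated within 1 line. Bases 8674 to 8752 (chr11:65431471-65431549) reached a log2 fold over input of 3.22 in MOLM13 replicate 2, and 4.25 and 4.00 in the THP1 replicates. Over IgG the same peaks had 1.16 in MOLM13 replicate 2, and 2.32 and 2.00 in the THP1 replicates. Bases 10557 to 10611 (chr11:65433354-65433408) had 3.55 over input in MOLM13 replicate 2, and 3.56 and 4.19 in THP1. In MOLM13, bases 10986 to 11105 (chr11:65433783-65433902) had 3.68 and 3.60 over input, and bases 5136 to 5187 (chr11:65427933-65427984) had 3.58 and 3.38. THP1 replicate 2 had peaks in both as well, at 3.80 and 3.46, and THP1 replicate 1 in neither. The region of bases 5136 to 5187 was near the level of IgG, with 0.65 and 0.08 log2 over IgG in MOLM13.

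One site in the later part of NEAT1 was picked out after its values were seen. At bases 15519 to 15573 (chr11:65438316-65438370), in the stretch that only the long form has, the log2 fold over input was 3.33 and 3.75 in MOLM13 and 5.20 in THP1 replicate 1, the highest of any NEAT1 peak. Over IgG it had 2.83 and 2.62 in MOLM13, the highest NEAT1 values of those libraries, and 1.96 in THP1 replicate 1. THP1 replicate 2, which had the most NEAT1 peaks, listed no cluster there.

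Over IgG, no NEAT1 cluster was called in any library. The span held 114 and 166 clusters in MOLM13 and 134 and 168 in THP1, and 0 of each passed, where 5.11%, 2.49%, 5.74% and 8.36% of all clusters did. Among all clusters with a peak over input, 45.0% and 28.1% in MOLM13 and 43.2% and 59.1% in THP1 were called over IgG, against 0 of 7, 0 of 77, 0 of 19 and 0 of 103 for NEAT1. Noncoding exon peaks of other genes were called over IgG in 61 of 123 cases (49.6%) and 44 of 124 (35.5%) in MOLM13, and in 62 of 152 (40.8%) and 94 of 160 (58.8%) in THP1. These counts come from the authors' per-cluster p and fold, with no test over replicates. Of 530 genes with at least 5 peaks in all 4 tables, NEAT1 and NES, which encodes the intermediate filament nestin, were the 2 without any peak called over IgG.

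Many NEAT1 clusters passed the p limit over IgG and none passed the fold limit. By the −log10 p limit of 3 alone, 41 of 114 (36.0%), 60 of 166 (36.1%), 22 of 134 (16.4%) and 95 of 168 (56.5%) NEAT1 clusters passed, where 7.86%, 4.47%, 7.78% and 9.86% of all clusters did. With a log2 fold of at least 1 as well, a limit chosen after the data were seen, 26, 36, 14 and 70 NEAT1 clusters passed (22.8%, 21.7%, 10.4% and 41.7%), where 7.82%, 4.43%, 7.77% and 9.84% of all clusters did. The highest NEAT1 cluster over IgG reached 2.83 and 2.62 for MOLM13, with 2.32 and 2.57 for THP1.

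By its median cluster, NEAT1 lay above the list median over IgG in 3 libraries and just below it in THP1 replicate 1. Its median log2 fold was 0.65 and 0.57 in MOLM13 and −0.06 and 0.79 in THP1. Minus the median of all clusters this is 0.37, 1.17, −0.07 and 0.42, a mean of 0.47 ± 0.51 (SD, n = 4), above 0 in 3 of 4 immunoprecipitates. An exact two-sided sign-flip test over the 4 immunoprecipitates gave p = 0.25, and 0.13 is the smallest p that 4 can give. Weighted by cluster width, the mean turned to −0.39, so the direction depends on whether wide clusters count for more. Clusters with a peak over input had medians over IgG of 1.07 and 0.65 in MOLM13 and 0.53 and 1.09 in THP1, against 0.62, 0.44, −0.20 and −0.82 for the other NEAT1 clusters of the same libraries. Even so, 1 of 7, 14 of 77, 3 of 19 and 13 of 103 NEAT1 peaks over input were below IgG.

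**Figure D1:**
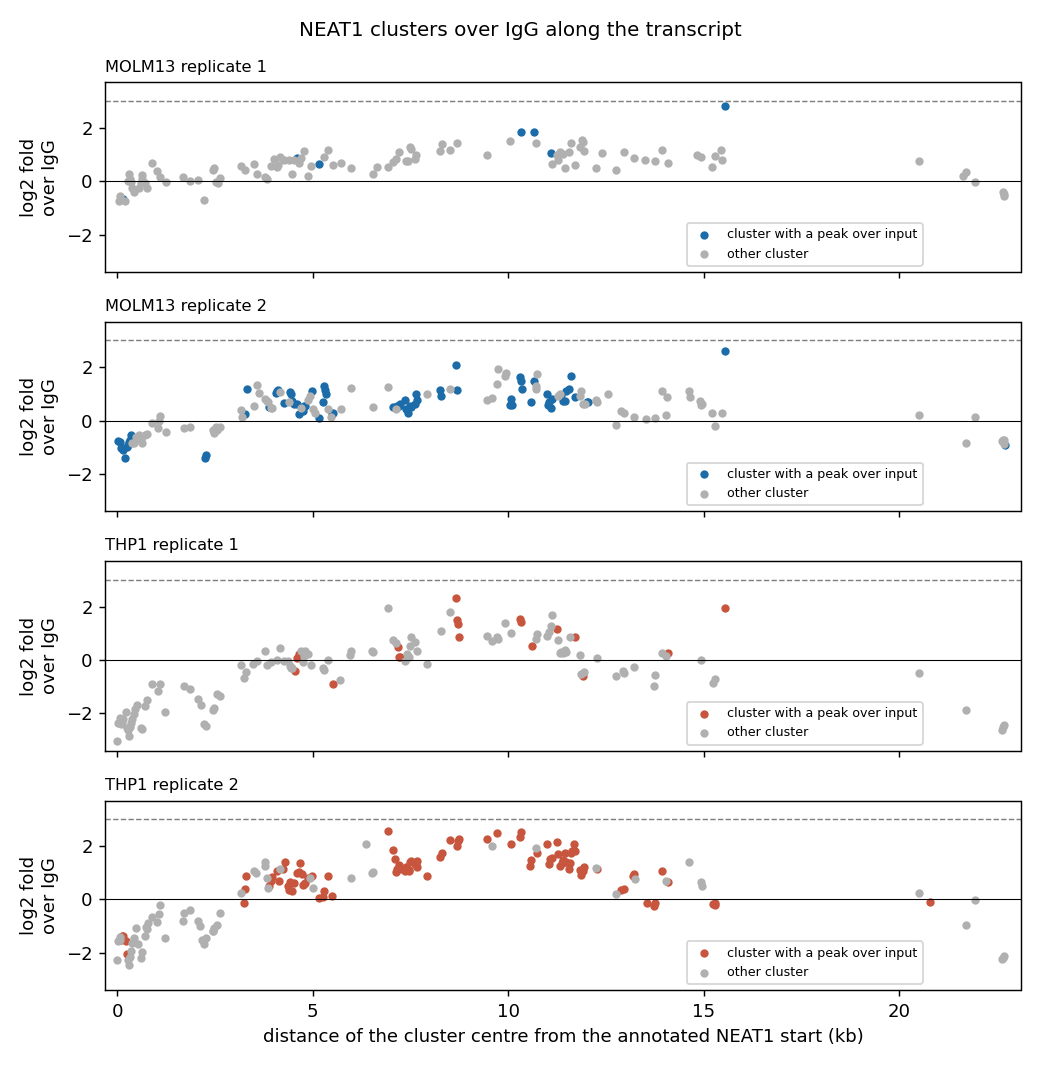
Each point is a NEAT1 cluster at its centre's distance from the annotated start (kb, x axis) and its log2 fold over IgG (y axis), coloured where it had a peak over input, with the limit of 3 dashed and one panel per immunoprecipitate. No point reaches 3, and in each panel the clusters nearest the start are among the lowest.

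The middle of NEAT1 stood above its first 5000 bases over IgG in the 4 libraries. Clusters of the first 5000 bases, where the short form lies, had medians of 0.19 and 0.12 in MOLM13 and −1.20 and −0.52 in THP1. Those of bases 5001 to 15000, which only the long form has, had medians of 0.98 and 0.77 in MOLM13 and 0.35 and 1.27 in THP1. The middle exceeded the first 5000 bases by 0.79 and 0.66 in MOLM13 and by 1.55 and 1.79 in THP1, higher in 4 of 4 libraries. This split was chosen with the values known, so it is given without a test. Below IgG lay 16 of 50, 32 of 65, 50 of 58 and 42 of 74 clusters of the first 5000 bases, but only 0 of 52, 1 of 88, 17 of 68 and 3 of 84 of the middle. The rest of the gene, which also only the long form has, held few clusters, with 12, 13, 8 and 10. Its medians of 0.44, −0.71, −1.37 and −0.19 are therefore uncertain. They lay below those of the first 5000 bases in MOLM13 replicate 2 and THP1 replicate 1, and above them in MOLM13 replicate 1 and THP1 replicate 2. The higher median was thus not a trait of all the bases that only the long form has. Nor did high folds begin at base 5000, since the first 5000 bases mix low and high clusters. Their highest clusters lay at bases 4739 to 4843 and 3526 to 3615 in the MOLM13 replicates, with 1.12 and 1.35. In the THP1 replicates they lay at bases 4165 to 4190 and 3758 to 3792, with 0.45 and 1.40. Each was above the median of the middle in its library.

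**Figure D2:**
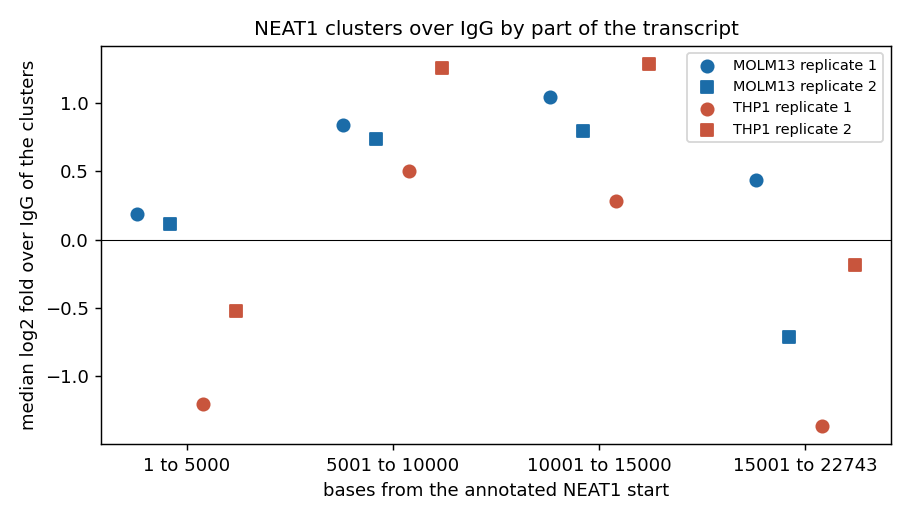
The median log2 fold over IgG (y axis) of the NEAT1 clusters in 4 parts of the transcript (bases from the annotated start, x axis), one symbol per immunoprecipitate, circles for replicate 1 and squares for replicate 2. The medians of bases 5001 to 15000 lie above those of bases 1 to 5000 in each library, and the last part rests on 8 to 13 clusters.

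At the very start of NEAT1 the peaks over input lay below IgG in the 3 libraries that had peaks there. This start was singled out after its values were seen. In the region of bases 1 to 364 (chr11:65422798-65423161) MOLM13 had 1 and 11 peaks over input and THP1 had 0 and 5, reaching 3.37 and 4.22 log2 in MOLM13 and 3.56 in THP1 replicate 2. THP1 replicate 1 had no peak there, so its folds over input are not known. Over IgG the clusters of that region had medians of −0.28 and −0.92 in MOLM13 and −2.38 and −1.61 in THP1, down to −0.75, −1.41, −3.03 and −2.47. The highest cluster of MOLM13 replicate 1 was above IgG, at 0.26. The lowest NEAT1 folds over IgG of all 4 libraries lay in these 364 bases.

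Site by site, NEAT1 folds over IgG kept their order between replicates. Over matched NEAT1 clusters, Pearson's r was 0.811 and Spearman's rho 0.714 between the MOLM13 replicates (107 clusters), and 0.969 and 0.948 between the THP1 replicates (130 clusters). Between MOLM13 and THP1, r was 0.773 for replicate 1 (101 clusters) and 0.901 for replicate 2 (148 clusters). Neighbouring clusters share fragments, so these are descriptions. The level itself differed between THP1 replicates, with replicate 1 a median of 0.75 below replicate 2. Between lines, NEAT1 minus the list median averaged 0.77 ± 0.56 for MOLM13 and 0.18 ± 0.34 for THP1 (SD, n = 2 each), a difference of 0.59 with an exact two-sided p of 0.667. With 2 against 2 the smallest p is 0.33, so no line difference can pass the threshold.

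MALAT1 had peaks over input in THP1 and none in MOLM13, where folds below the limit of 3 are not listed. The THP1 folds lay close to that limit, so MOLM13 folds just under it cannot be told from much lower ones. Both THP1 comparisons may also use the single THP1 input. THP1 replicate 1 had 11 peaks with log2 folds of 3.03 to 3.77 (median 3.33), and replicate 2 had 3 peaks of 3.05 to 3.22 (median 3.10). All 14 stood at the −log10 p ceiling of 400. They cover a single region of 91 bases in THP1 replicate 1 and its 5′ 55 bases in replicate 2, so 14 peaks are 1 place on the transcript. It begins at base 3066 from the start of the annotated gene, or at base 1759 from the other annotated start, before which no library had a MALAT1 cluster.

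At this site every cluster of every library was above IgG. MOLM13 had 5 and 6 clusters there with log2 folds of 0.94 to 1.77 and 0.92 to 1.59, and THP1 had 11 and 11 clusters with 2.33 to 3.58 and 2.39 to 3.59. The THP1 values were the higher, and the choice of the site from THP1 peaks favours this direction. The MOLM13 clusters also ran past the edges of the site. In THP1, 6 of 11 (54.5%) and 7 of 11 (63.6%) were called, where 5.74% and 8.36% of all THP1 clusters were. In MOLM13, 0 of 5 and 0 of 6 were called, where 5.11% and 2.49% of all clusters were. All 33 site clusters passed the −log10 p limit of 3, with 37.3 to 400 and 26.2 to 82.7 in MOLM13 and 400 throughout THP1. Clusters at the site touch and share fragments, so these counts describe 1 site and are not independent.

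The fold fell towards the 3′ edge of the site in the 4 immunoprecipitates. Its highest cluster over IgG was chr11:65500788-65500858 in MOLM13 replicate 1 (1.77) and chr11:65500787-65500857 in replicate 2 (1.59). In THP1 it was chr11:65500820-65500835 in replicate 1 (3.58) and chr11:65500827-65500840 in replicate 2 (3.59), both inside the MOLM13 clusters. At the 3′ edge the fold was 0.94 and 0.92 in MOLM13 and 2.33 and 2.39 in THP1. In THP1 the 5′ cluster of the site was lower than the highest one, at 3.29 and 3.31, while in MOLM13 a single wide cluster covered that part, so no such step could be seen. THP1 clusters touching the site on its outer edges were also above IgG, with 2.32 and 2.23 on the 5′ side and 2.23 and 2.25 on the 3′ side, so the raised folds run past the 91 bases.

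**Figure D3:**
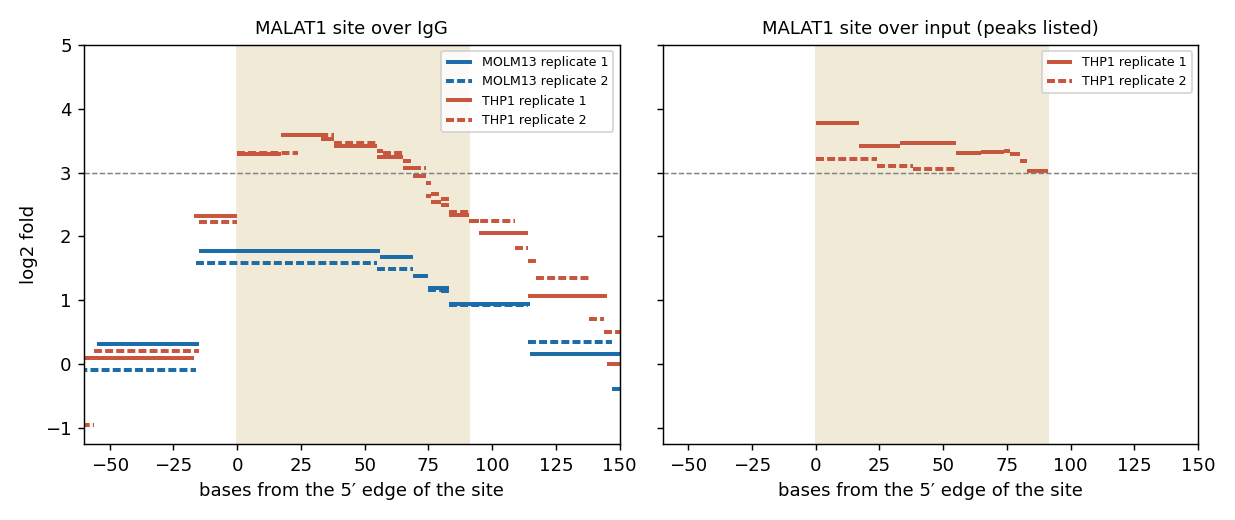
Each bar is a MALAT1 cluster at its position from the 5′ edge of the 91-base site (bases, x axis) and its log2 fold (y axis), over IgG on the left and over input on the right, with the site shaded, replicate 1 solid, replicate 2 broken and the limit of 3 dashed. Over IgG the MOLM13 bars in the site lie between 0.92 and 1.77 and the THP1 bars between 2.33 and 3.59, and both lines decline towards the 3′ edge.

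Most clusters of the rest of MALAT1 lay below IgG. Outside the site there were 54 and 59 clusters in MOLM13 and 33 and 49 in THP1, with median log2 folds of −1.10 and −1.13 for MOLM13, −0.99 and −0.94 for THP1, and 0 were called in each library. Below IgG were 51 of 54 and 55 of 59 in MOLM13 and 23 of 33 and 37 of 49 in THP1, the clusters beside the site being among the exceptions. The site exceeded that remainder by 2.48 and 2.40 in MOLM13 and 4.07 and 4.12 in THP1, a mean of 3.26 ± 0.96 (SD, n = 4), higher in 4 of 4 libraries. The exact two-sided sign-flip p was 0.13, the smallest that 4 immunoprecipitates can give. The THP1 immunoprecipitates had also chosen the site, which favours values above 0, and this contrast was not planned. No conclusion is therefore drawn from this p. Per line, this difference was 2.44 ± 0.060 for MOLM13 and 4.09 ± 0.033 for THP1 (SD, n = 2 each), given side by side since THP1 peaks chose the site.

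Against all clusters of the list, the MALAT1 site stood 1.10 and 1.87 higher in MOLM13 and 3.07 and 2.80 higher in THP1. The mean was 2.21 ± 0.90 (SD, n = 4; exact sign-flip p = 0.13). The THP1 immunoprecipitates had also chosen the site, which favours values above 0, so no conclusion is drawn from this p. Taken over the whole annotated gene instead, the mean was −0.76, with values below 0 in each of the 4 libraries. MALAT1 thus stands above the list at this site and below it as a gene. On the list-centred scale the site had 1.48 ± 0.54 for MOLM13 and 2.94 ± 0.19 for THP1 (SD, n = 2 each), a difference of −1.46. The choice of the site from THP1 peaks favours this direction, so no p is given for it. Expression levels of MALAT1 were not used here.

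**Figure D4:**
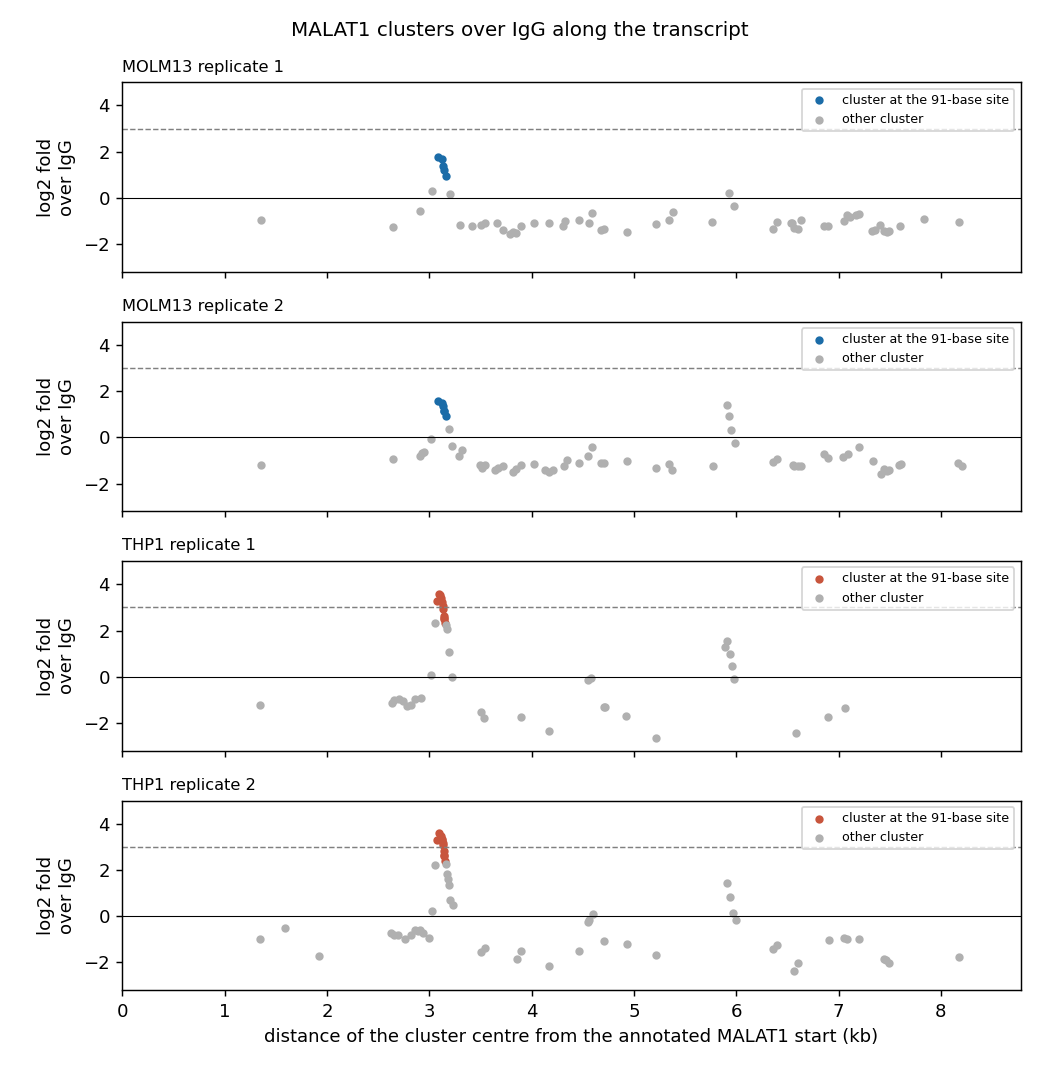
Each point is a MALAT1 cluster at its centre's distance from the annotated start (kb, x axis) and its log2 fold over IgG (y axis), coloured where it lies in the 91-base site, with the limit of 3 dashed and one panel per immunoprecipitate. The site stands out near 3.1 kb in each panel, most other points lie below 0, and a lower rise lies near 5.9 kb.

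A further place of higher folds lay at bases 5891 to 5961 of MALAT1 (chr11:65503628-65503698), found after the values were seen. Its highest cluster had 0.21 and 1.42 log2 over IgG in MOLM13 and 1.55 and 1.45 in THP1. It stood above the median of MALAT1 outside the site in each library, was called in none and had no peak over input.

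Within each immunoprecipitate, NEAT1 over its span was lower than the MALAT1 site over IgG. NEAT1 minus MALAT1 was −0.73 and −0.70 in MOLM13 and −3.14 and −2.39 in THP1, a mean of −1.74 ± 1.22 (SD, n = 4), below 0 in 4 of 4 libraries (exact two-sided sign-flip p = 0.13, the smallest possible). This sets a transcript of many clusters against 1 site that the THP1 immunoprecipitates had chosen. That choice favours this sign, so no conclusion is drawn from the p. With each gene taken over its full annotated length, the difference turned to 1.23, with NEAT1 above MALAT1 in 4 of 4 libraries.

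The small RNAs of the locus and the genes FRMD8 and FAUP4 were also looked at. MIR612, a microRNA gene inside the 3′ part of NEAT1, had 1 cluster per library with log2 folds over IgG of 0.36 and −0.84 for MOLM13, −1.88 and −0.94 for THP1, and no peak over input. No cluster lay in mascRNA. Upstream, FRMD8, which encodes a partner of the iRhom proteins, had 11 and 13 clusters in MOLM13 and 12 and 12 in THP1, none called over IgG and none with a peak over input. FAUP4, a pseudogene between NEAT1 and MALAT1, had 1 cluster in each THP1 library only, at 0.49 and 0.70.

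Other long noncoding RNAs and the mRNAs of nuclear body proteins lay on both sides of NEAT1 in how high their peaks rose. Of 30 long noncoding RNAs listed for comparison, 9 had peaks over input in both MOLM13 replicates and 9 in both THP1 replicates, and 5 and 7 of these were called over IgG in both. Of the 9 in each line, 6 in MOLM13 and 5 in THP1 exceeded the highest NEAT1 peak in both replicates, and 2 and 3 did so in neither, such as TUG1 in MOLM13 (3.31 and 4.18). The highest NEAT1 peaks lay below the median of all peaks in MOLM13 (3.68 and 4.29 against 4.38 and 4.33). In THP1 they lay above it (5.20 and 4.61 against 4.51 and 4.47). The share of all genes above the highest NEAT1 peak was not counted, and neither was the share of all annotated genes with peaks in both replicates. Nothing is therefore read from either kind of count in this or the other lists. Among all genes with peaks in both replicates, 41.5% of 4291 in MOLM13 and 62.1% of 5012 in THP1 had a peak called over IgG in both. PVT1, the noncoding neighbour of MYC, reached log2 folds of 9.95 and 9.36 over input in MOLM13, with 8.44 and 8.76 in THP1. OIP5-AS1, a cytoplasmic RNA also called Cyrano, reached 7.83 and 7.05 in MOLM13, with 7.003 and 8.222 in THP1, and both stood well above the highest NEAT1 peak of each library. FTX, an RNA of the X inactivation centre, reached 7.68 and 6.57 in MOLM13, with 8.28 and 7.70 in THP1. JPX, another RNA of that centre, reached 7.01 and 6.82 in MOLM13, with 7.25 and 6.85 in THP1.

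Of 24 genes for paraspeckle proteins, 10 had peaks in both MOLM13 replicates and 11 in both THP1 replicates, with 3 and 8 called over IgG in both. The highest NEAT1 peak was exceeded in both replicates by 6 in MOLM13 and 6 in THP1, and in neither by 0 and 4. MATR3, which encodes the nuclear matrix protein matrin 3, reached 6.24 and 7.72 in MOLM13, with 8.03 and 7.13 in THP1. PSPC1, a core paraspeckle protein, reached 5.82 and 6.78 in MOLM13, with 5.88 and 7.25 in THP1. CPSF6, a subunit of the pre-mRNA cleavage factor CFIm, reached 6.63 and 5.74 in MOLM13, with 6.20 and 6.38 in THP1. The mRNAs of NONO and SFPQ, the proteins that bind NEAT1 to form the body, were almost without peaks, with 1 for NONO in MOLM13 replicate 2 (3.56) and none for SFPQ. This was not particular to them, since other genes of the list, such as RBM14 and HNRNPK, had no peak in any library. Of 20 genes for nuclear speckle proteins, 9 had peaks in both MOLM13 replicates and 7 in both THP1 replicates, with 4 and 3 called over IgG in both. Of these, 3 in MOLM13 and 3 in THP1 exceeded the highest NEAT1 peak in both replicates, and 4 and 3 did so in neither, such as SRSF3 in MOLM13 (3.64 and 3.46). DYRK1A, a kinase that phosphorylates splicing factors, reached 9.03 and 7.12 in MOLM13, with 8.19 and 7.59 in THP1. PPIG, a cyclophilin of nuclear speckles, reached 6.22 and 7.43 in MOLM13, with 7.17 and 8.77 in THP1. ACIN1, which encodes acinus, reached 6.29 and 6.19 in MOLM13, with 7.34 and 6.73 in THP1.

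The genes nearest to NEAT1 in their values were sought over all genes with enough peaks. Over 8 values, the median log2 folds over input and over IgG of a gene's peaks in each library, the nearest of 529 genes with at least 5 peaks per table were MOSMO at a Euclidean distance of 1.92, MAPK8IP3 at 2.69 and NCOA3 at 3.46. MOSMO, which encodes a regulator of Hedgehog signalling, had median folds over IgG of 1.56 and −0.20 in MOLM13 and 0.11 and 0.61 in THP1 where NEAT1 peaks had 1.07, 0.65, 0.53 and 1.09. For MALAT1, over the 4 values of THP1, the nearest of 1001 genes were the cohesin gene SMC3 at 0.630, the actin regulator WASF2 at 0.687 and the glycosyltransferase gene B3GNT2 at 0.756. SMC3 had median folds over IgG of 3.12 and 3.18 in THP1 where the MALAT1 peaks had 3.08 and 3.46. The measure uses levels alone and takes no account of where on a transcript the peaks lie.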

How the data were processed

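ZFP36L2 or IgG immunoprecipitates of MOLM13 and THP1 were cut out between about 30 and 105 kDa, per the labels' protocols. Tools named in the submitters' processing notes, without roles, are cutadapt (1.14), STAR (2.5.0c), Picard (2.6.0) and edgeR, with hg19, GRCh37 and hg38 as builds. The sources used here give neither the peak caller nor the test behind p or the scaling of folds. The files used carry hg38 coordinates.

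In the deposited tables the authors give, per immunoprecipitate, a −log10 p (at most 400) and a log2 fold for each cluster. The deposited input tables hold, with gene names, only clusters at 3 or above on both scales, and the IgG lists hold clusters at any fold, without names. Clusters were called in each replicate separately, not on pooled samples. Both were joined by identical coordinates, which 14403 of 14432, 14396 of 14425, 19306 of 19325 and 18871 of 18901 peaks had, the NEAT1 and MALAT1 peaks among them; the rest were left out of IgG counts. Clusters over IgG were taken within the span of the peaks, or within the RefSeq bounds as an alternative, on the plus strand, and a shared base counted as overlap.

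The unit of testing was the immunoprecipitate: exact sign-flip tests over 4 and exact permutation tests of 2 against 2, with no p across clusters. Functions were tested on simulated data (Python 3.11.15, pandas 2.3.3, NumPy 2.4.6). The members, lists and parts of transcripts were chosen with earlier results of these data known. Regions named are those in both replicates of a line with the highest lower fold, up to 6, and genes named from lists are the leading 3. Outside that rule, TUG1, SRSF3, NONO, SFPQ, RBM14 and HNRNPK are named as examples with their values known. Motifs in peaks were not searched, since no genome was used here. One marker list and one neighbouring gene are not reported here.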

Additional observations from a re-analysis of the deposited data

Results flagged for a closer look

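One of 19 values looked at had opposite signs in the lines. The median log2 fold over IgG of the clusters in NEAT1 bases 1 to 5000 was above 0 in both MOLM13 immunoprecipitates, at 0.19 and 0.12, and below 0 in both THP1 immunoprecipitates, at −1.20 and −0.52. The lines' means differ by 1.01, and the difference was not tested. Relative to the median of each list the MOLM13 values are −0.10 and 0.72 and the THP1 values −1.20 and −0.90, so MOLM13 replicate 1 changes sign with the centring while both MOLM13 values stay above both THP1 values. Bases 1 to 5000 mix clusters of both signs, with 16 of 50 and 32 of 65 below 0 in MOLM13 and 50 of 58 and 42 of 74 in THP1. In bases 1 to 364 the medians were below 0 in both lines, at −0.28 and −0.92 in MOLM13 and −2.38 and −1.61 in THP1. The opposite sign is thus that of the median over all 5000 bases and does not hold at each place within them.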

How the results depend on the processing

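No paired analysis was possible because each deposited table already holds a comparison of 1 immunoprecipitate with its control, and replicate numbers tie no immunoprecipitate of one line to one of the other. Of the values under alternatives, 65 kept their sign or, for counts, stayed equal or near, 15 counts moved further and 3 values reversed sign. Some counts could not change, such as the 0 MALAT1 peaks of MOLM13 under stricter limits. The reversed values were NEAT1 over IgG minus all clusters, −0.39 when weighted by cluster width, and, over RefSeq bounds, MALAT1 minus all clusters at −0.76 and NEAT1 minus MALAT1 at 1.23. Under limits of 4 on the log2 fold and 5 on the −log10 p, NEAT1 kept 0, 5, 2 and 17 peaks over input, MALAT1 kept 0 and 0 in THP1, and the 13 MALAT1 calls over IgG became 0. With a limit of 3 above each list's median, the calls over IgG were 1 for NEAT1 and 8 for MALAT1, and with a log2 limit of 1, added after seeing the data, 146 and 31. Leaving out 1 immunoprecipitate at a time, NEAT1 regions shared by all remaining tables numbered 2 to 7 (7 without MOLM13 replicate 1, 5 without THP1 replicate 1), and MALAT1 calls 6 to 13 (7 without THP1 replicate 1, 6 without THP1 replicate 2). NEAT1 minus all clusters then ranged over 0.24 to 0.65, MALAT1 over 1.92 to 2.58, NEAT1 minus MALAT1 over −2.09 to −1.27, and MOLM13 minus THP1 over 0.19 to 0.99 for NEAT1 and −1.84 to −1.07 for MALAT1. The filter on clusters of at least 20 bases gave 0.31 for NEAT1 and no value for MALAT1, whose THP1 replicate 1 clusters are all shorter, and the motif alternatives were not run. Depth per library is unknown, so counting error could not be set beside any fold.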
